A study of Mus musculus with 8 samples.

Results

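The 8 hepatocyte lineage transcription factor genes described here are Hnf4a, Foxa1, Foxa2, Foxa3, Onecut1, Onecut2, Cebpa and Prox1. They were taken by symbol from the annotation of the array and were 8 of 19934 genes measured by a probe set that names a single gene. Each of the 8 has 1 such probe set. Transcript levels were read on Affymetrix arrays, 1 array per sample, in liver from male C57Bl/6 mice, with 4 samples of NS-DADm genotype and 4 of WT. In NS-DADm mice both nuclear receptor corepressors, NCOR and SMRT, carry a mutated deacetylase-activating domain (DAD), the stretch that binds the histone deacetylase HDAC3 and turns on its activity. WT mice carry neither mutation. The line is a germline knock-in, so the other cell types of these whole livers carry the mutations too. All mice were 10 to 12 weeks old, ate normal chow, lived in days of 12 h light and 12 h dark, and were sampled at zeitgeber time 10. Whether the 8 arrays stand for 8 animals is not said in the labels, so the errors and p-values below cover the variation among these samples alone, some of which may be technical.

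These factors form the regulatory core that makes a liver cell a hepatocyte. HNF4A is a nuclear receptor that binds a large share of active hepatocyte genes. FOXA proteins are forkhead pioneer factors that open chromatin at liver enhancers. ONECUT proteins pair a cut domain with a homeodomain and act in liver and biliary development. C/EBP alpha is a leucine zipper factor of metabolic maturity, and PROX1 is a homeodomain protein that often acts as a corepressor. The factors bind and regulate one another's genes. In mouse liver PROX1 and HNF4A are both known to share genomic sites with HDAC3, the enzyme that the mutated domains no longer activate.

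No gene of the 8 passed the test between genotypes, which was limma's moderated test, adjusted by Benjamini-Hochberg across the 19934 genes and read at a threshold of 0.05. Over all genes 54 passed, or 0.271%. At an unadjusted p under 0.05 limma called 1 of the 8, Onecut1, against 9.33% of all genes. The 4 NS-DADm and 4 WT values overlapped in all 8 genes, whereas they did not overlap in 5.63% of all genes. The log2 fold change of NS-DADm over WT was above 0 for 5 of the 8 and below 0 for 3. Its median was 0.04, and the median over all genes was -0.01. Onecut1 had the largest difference, 0.77 on the log2 scale, and Foxa3 the next, 0.30. For the other 6 genes the 95% confidence interval lay within 0.5 log2 units of 0 on either side. A gene that did not pass this test is not thereby shown to be equal in the genotypes, and the intervals say how large a difference the 4 arrays per group leave possible.

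**Figure D1:**
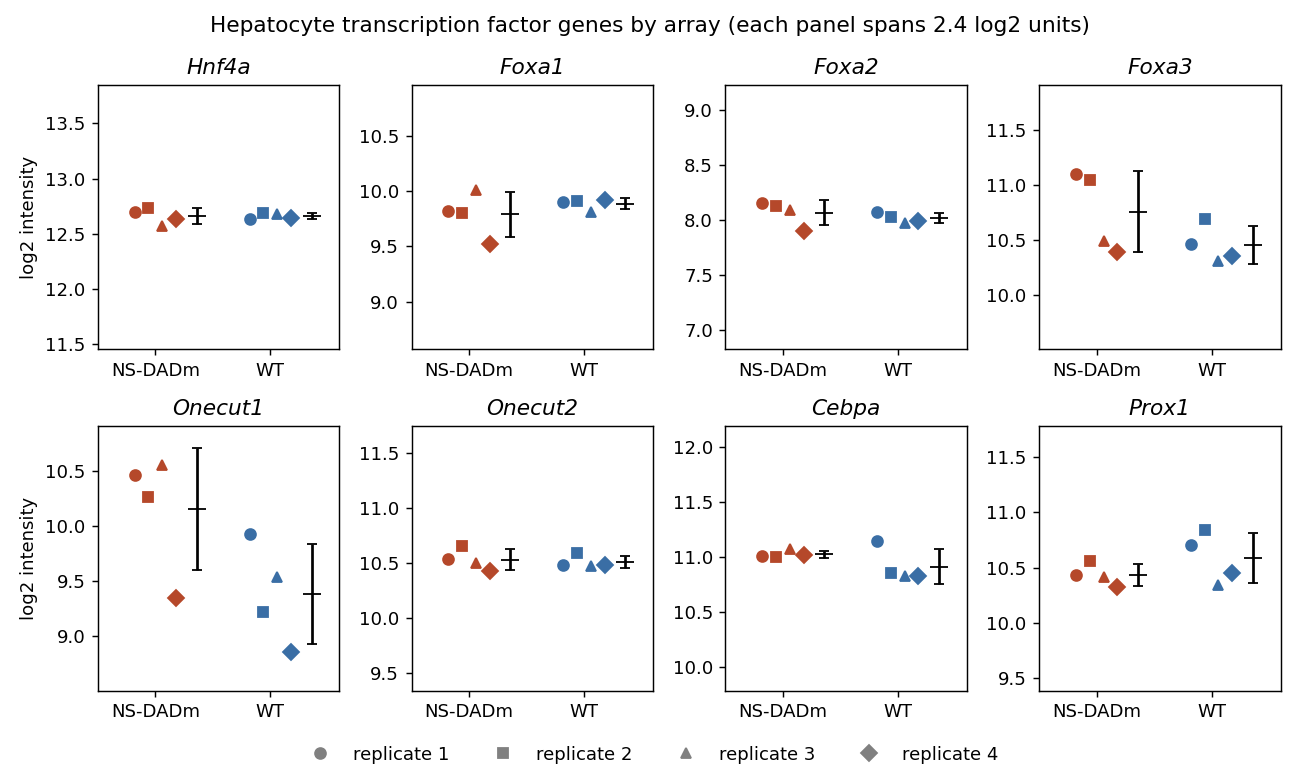
Log2 intensity of each of the 8 genes on every array, NS-DADm on the left and WT on the right of each panel. Marker shapes give the replicate number, for which no pairing of samples is stated, and black bars give the mean and SD of 4 arrays. In Onecut1, 3 of the 4 NS-DADm arrays lie above all WT arrays, while Hnf4a stays within 0.16 log2 units in either genotype.

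The promoter windows shown are those of the genes with the largest differences, Onecut1 and Foxa3, both windows of Hnf4a, and the 1 of 3 Foxa2 windows that holds a core ONECUT site. RefSeq start sites on GRCm38.p6 gave 11 windows of 250 bases for 7 of the 8 genes, and the promoter of Onecut2 was not looked for. The sequences are credited to RefSeq and run 5′ to 3′ along the gene up to the base before the annotated start. Capitals mark matches, on either strand, to the motifs TGTTTNC (FOXA), TTGCNNAA (C/EBP), CAAAGTCCA (HNF4), ATTGAT and ATCGAT (ONECUT), TTCNNNGAA (STAT5) and TATAAA (the box bound by TBP). The Onecut1 window is chr9:74861671-74861920 on the plus strand, and the Foxa3 window is chr7:19023540-19023789 on the minus strand. The Hnf4a windows are chr2:163506607-163506856 (upstream start) and chr2:163546905-163547154 (downstream start) on the plus strand, and the Foxa2 window is chr2:148046970-148047219 on the minus strand.
Onecut1: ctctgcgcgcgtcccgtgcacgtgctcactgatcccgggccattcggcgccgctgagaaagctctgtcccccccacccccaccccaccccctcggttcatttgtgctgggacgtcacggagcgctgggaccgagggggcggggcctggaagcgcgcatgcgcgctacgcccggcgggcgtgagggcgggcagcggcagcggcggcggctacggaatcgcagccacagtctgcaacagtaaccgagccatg
Foxa3: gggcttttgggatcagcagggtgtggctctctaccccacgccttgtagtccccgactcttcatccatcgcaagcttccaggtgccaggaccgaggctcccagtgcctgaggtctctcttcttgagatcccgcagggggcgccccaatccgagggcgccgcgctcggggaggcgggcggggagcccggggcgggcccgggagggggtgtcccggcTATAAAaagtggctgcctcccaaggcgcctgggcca
Hnf4a upstream: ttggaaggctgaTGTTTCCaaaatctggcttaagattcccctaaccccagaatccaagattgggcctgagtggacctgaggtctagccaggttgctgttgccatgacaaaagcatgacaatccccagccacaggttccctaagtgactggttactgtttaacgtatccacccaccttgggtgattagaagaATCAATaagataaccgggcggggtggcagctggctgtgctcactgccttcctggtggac
Hnf4a downstream: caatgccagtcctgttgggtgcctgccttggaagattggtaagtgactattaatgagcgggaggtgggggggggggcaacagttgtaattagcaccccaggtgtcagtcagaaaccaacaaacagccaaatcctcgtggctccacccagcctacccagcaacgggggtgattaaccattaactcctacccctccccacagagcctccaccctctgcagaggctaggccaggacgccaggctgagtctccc
Foxa2: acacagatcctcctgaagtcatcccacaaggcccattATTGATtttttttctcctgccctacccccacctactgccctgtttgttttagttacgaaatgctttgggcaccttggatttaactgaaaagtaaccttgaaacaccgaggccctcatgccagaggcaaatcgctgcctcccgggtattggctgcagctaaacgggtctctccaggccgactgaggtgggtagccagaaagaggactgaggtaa

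The Onecut1 window held none of the 7 motifs and was 71.6% G and C. The Foxa3 window held TATAAA, which began 36 bases before the start. The upstream Hnf4a window held an inverted ATTGAT 59 bases before the start and a TGTTTNC match 238 bases before it. The downstream Hnf4a window held none of the 7 motifs. In mice an upstream promoter is used in fetal liver and pancreas and a downstream one in adult liver, and the single probe set does not tell their transcripts apart. The Foxa2 window shown held ATTGAT 213 bases before the start. Of the other two Foxa2 windows, neither with an ONECUT match, the second held none of the 7 motifs and the third an inverted TATAAA. No matches overlapped. Over 32851 RefSeq windows of the same length, ATTGAT was present in 6.72%, TGTTTNC in 17.8% and TATAAA in 12.4%. A match describes these letters only, and binding was not measured.

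Onecut1 (Entrez Gene 15379, chromosome 9, 74861921 to 74889648) encodes hepatocyte nuclear factor 6, which in rats is induced by growth hormone and which regulates Foxa2, Hnf4a and Cyp7a1. Its log2 intensities were 10.46, 10.26, 10.55 and 9.34 in NS-DADm livers, against 9.93, 9.22, 9.53 and 8.86 in WT livers. NS-DADm replicates 1, 2 and 3 lay above all WT arrays, and NS-DADm replicate 4 lay between WT replicates 2 and 3. The means were 10.15 ± 0.55 in NS-DADm livers and 9.38 ± 0.45 in WT livers (SD, n = 4 each). That is 1.70-fold, a log2 fold change of 0.77 (SE 0.27, 95% confidence interval 0.17 to 1.37). It did not pass limma's test (adjusted p = 0.388, unadjusted p = 0.0173). The exact two-sided permutation test of the difference of means gave p = 0.0857, where 4 against 4 arrays can reach 0.0286 at best. Of all genes 0.211% had a log2 fold change at least as high. The spread of Onecut1 within genotypes was also wide, a pooled SD of 0.51, and 99.7% of genes had a smaller one. Without NS-DADm replicate 4 the log2 fold change was 1.04 (limma adjusted p = 0.0580), and over the other arrays left out in turn it ran from 0.60 without WT replicate 4 to 0.95 without WT replicate 1. NS-DADm replicate 4 also lay above the other NS-DADm arrays in markers of several other cell types, though not of all. It was the highest of them for 17 hepatocyte product markers too, at a mean level of 13.57 (13.50 to 13.54 in the others). For 10 cholangiocyte markers that array was the lowest, at 7.57 (7.59 to 7.68 in the others). It was also the lowest for 9 pancreas markers, at 6.89 (6.92 to 7.01 in the others). For sinusoidal endothelial markers the mean level over 14 genes was 9.53 in that array, with 8.90 to 9.22 in NS-DADm replicates 1, 2 and 3 and 9.42 to 9.58 in WT arrays. For 12 Kupffer cell markers it was 9.72, with 8.66 to 9.31 in the other NS-DADm arrays and 8.77 to 9.40 in WT arrays. For 12 stellate cell markers it was 9.21, with 8.63 to 8.84 in the other NS-DADm arrays and 8.90 to 9.03 in WT arrays. For 9 blood cell markers it was 7.20, with 6.89 to 6.92 in the other NS-DADm arrays and 6.81 to 6.98 in WT arrays. WT replicate 4, the lowest WT array for Onecut1, was the highest WT array for Kupffer cell and cholangiocyte markers. That array was the lowest WT array for blood cell and pancreas markers, and neither for sinusoidal endothelial, stellate cell and hepatocyte product markers. In whole tissue fewer cells of a type and less RNA per cell cannot be told apart. The part of this in the Onecut1 values was not tested.

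Onecut2 (Entrez Gene 225631) encodes the paralog that acts beside Onecut1 in biliary and hepatocyte differentiation. It was at 10.53, 10.66, 10.50 and 10.42 in NS-DADm livers, against 10.48, 10.59, 10.48 and 10.48 in WT livers. The groups lay on top of each other, with the highest value of either genotype in replicate 2. They differed by a log2 fold change of 0.02 (95% confidence interval -0.12 to 0.16, limma adjusted p = 0.979). Without NS-DADm replicate 2 it was -0.02. The intervals of the paralogs did not overlap, since that of Onecut1 began at 0.17, but the difference between the genes was not itself tested.

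Among the forkhead genes, Foxa3 (Entrez Gene 15377, chromosome 7, 19013283 to 19023539) encodes the member that in mice is dispensable for liver development and sustains glucose homeostasis in fasting. It was at 11.10, 11.04, 10.49 and 10.39 in NS-DADm livers, against 10.46, 10.69, 10.31 and 10.35 in WT livers. NS-DADm replicates 1 and 2 stood above all WT arrays, and replicates 3 and 4 lay within the WT range. The means were 10.75 ± 0.37 in NS-DADm livers and 10.45 ± 0.17 in WT livers (SD, n = 4 each). The log2 difference was 0.30 (SE 0.16, 95% confidence interval -0.05 to 0.65, limma adjusted p = 0.614). The exact permutation p was 0.20. The difference was 0.42 when NS-DADm replicate 4 was left out and 0.19 when NS-DADm replicate 1 was.

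Foxa1 (Entrez Gene 15375, chromosome 12) and Foxa2 (Entrez Gene 15376, chromosome 2) encode the forkhead factors that together are needed for the onset of liver development in mice. Foxa1 was at 9.82, 9.80, 10.01 and 9.52 in NS-DADm livers, against 9.90, 9.91, 9.82 and 9.92 in WT livers. NS-DADm replicate 3 was the highest and NS-DADm replicate 4 the lowest of the 8 arrays, so the NS-DADm range, 0.49, enclosed the WT range, 0.11. Foxa1 had a log2 fold change of -0.10 (95% confidence interval -0.30 to 0.10, limma adjusted p = 0.861), and -0.01 without NS-DADm replicate 4.

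Foxa2 was at 8.15, 8.12, 8.09 and 7.90 in NS-DADm livers, against 8.07, 8.03, 7.97 and 7.99 in WT livers. As in Onecut1, NS-DADm replicates 1, 2 and 3 lay above all WT arrays, but here replicate 4 lay below them all and the steps were small. Foxa2 had a log2 fold change of 0.05 (95% confidence interval -0.09 to 0.19, limma adjusted p = 0.926), and 0.11 without NS-DADm replicate 4.

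Hnf4a (Entrez Gene 15378, chromosome 2, 163506811 to 163572907) was at 12.70, 12.73, 12.57 and 12.63 in NS-DADm livers, against 12.63, 12.68, 12.68 and 12.64 in WT livers. Both means were 12.66, with SDs of 0.071 in NS-DADm livers and 0.026 in WT livers (n = 4 each). Their log2 difference was -0.0012, with a 95% confidence interval of -0.12 to 0.12, or 0.920-fold to 1.08-fold (limma adjusted p = 0.999). Its sign turned under several alternatives, and 8.79% of genes had a smaller pooled SD.

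Cebpa (Entrez Gene 12606, chromosome 7), whose product drives gluconeogenic, urea cycle and glycogen genes, was at 11.01, 11.00, 11.07 and 11.02 in NS-DADm livers, against 11.15, 10.85, 10.83 and 10.82 in WT livers. The NS-DADm arrays were tightly grouped above 3 WT arrays, while WT replicate 1 lay above all of them. For Cebpa the log2 fold change was 0.11 (SE 0.076, 95% confidence interval -0.06 to 0.28, limma adjusted p = 0.754). Without WT replicate 1 it was 0.19 (limma adjusted p = 0.293).

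Prox1 (Entrez Gene 19130, chromosome 1, 190118035 to 190170827) was at 10.44, 10.56, 10.42 and 10.32 in NS-DADm livers, against 10.71, 10.84, 10.34 and 10.45 in WT livers. WT replicates 1 and 2 lay above all NS-DADm arrays, and WT replicates 3 and 4 lay among them. The log2 fold change was -0.15 (SE 0.10, 95% confidence interval -0.38 to 0.08, limma adjusted p = 0.752). It was -0.07 without WT replicate 2 and -0.23 without WT replicate 3. Lymphatic endothelium also expresses Prox1. Of 7 measured lymphatic endothelial markers, Prox1 included, none passed limma's test, and the median log2 fold change was -0.21. At an unadjusted p under 0.05 limma called 3, Flt4 and Reln among them, against 9.33% of all genes. Flt4 and Lyve1 are also listed here as sinusoidal endothelial markers, and Reln as a stellate cell marker. Pdpn and Mmrn1 were above 0 and the other 5 below 0. Without NS-DADm replicate 4, 1 of the 7 passed, Flt4 (-0.38, limma adjusted p = 0.0460), and 126 of all 19934 genes did. The mean level of the 7 was 8.23 to 8.65 in NS-DADm livers and 8.48 to 8.62 in WT livers. Pdpn, which encodes podoplanin, was at 7.51 ± 0.09 in NS-DADm livers and 7.49 ± 0.18 in WT livers (SD, n = 4 each). The part of lymphatic cells in the Prox1 values was not tested.

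**Figure D2:**
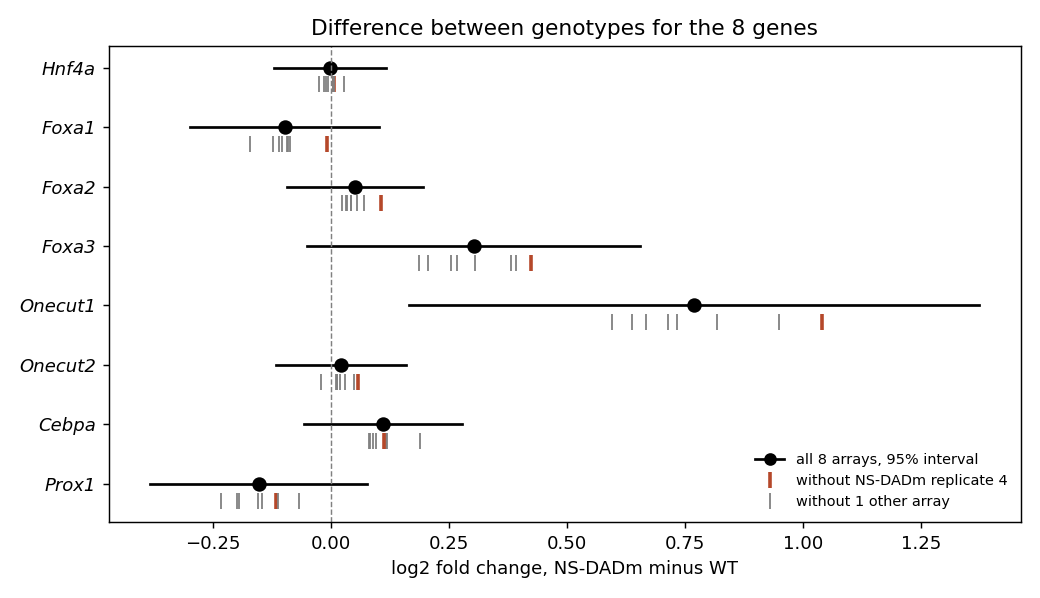
Log2 fold change of NS-DADm over WT for each gene, with the 95% confidence interval of the limma fit (black) and, below it, the value with each of the 8 arrays left out (ticks). Leaving out NS-DADm replicate 4 (red) gives the highest value for Onecut1 (1.04), Foxa3 (0.42), Foxa2 (0.11), Onecut2 (0.06) and Foxa1 (-0.01).

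NS-DADm replicate 4 was the lowest of the NS-DADm arrays for 6 of the 8 genes, all but Hnf4a and Cebpa. WT replicate 4 was the lowest WT array for 2 of the 8, Onecut1 and Cebpa. The 28 pairs among the 8 genes were compared over the 8 arrays with exact permutation tests, and none passed after adjustment over the 28 pairs. Foxa2 and Onecut1 had r = 0.78 (exact permutation p = 0.0262, adjusted 0.28) and rho = 0.74 (exact permutation p = 0.0458, adjusted 0.321). Foxa2 and Foxa3 had r = 0.77 (exact permutation p = 0.0249, adjusted 0.28) and rho = 0.86 (exact permutation p = 0.0107, adjusted 0.15). Foxa3 and Onecut2 had r = 0.77 (exact permutation p = 0.0300, adjusted 0.28) and rho = 0.86 (exact permutation p = 0.0107, adjusted 0.15). Without the 2 arrays farthest from the median of the first-named gene these r were 0.80, 0.73 and 0.85. Over deviations from the group means they were 0.80, 0.75 and 0.81. After subtraction of array medians r was 0.62 for Foxa2 and Onecut1, 0.80 for Foxa2 and Foxa3 and 0.74 for Foxa3 and Onecut2.

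**Figure D3:**
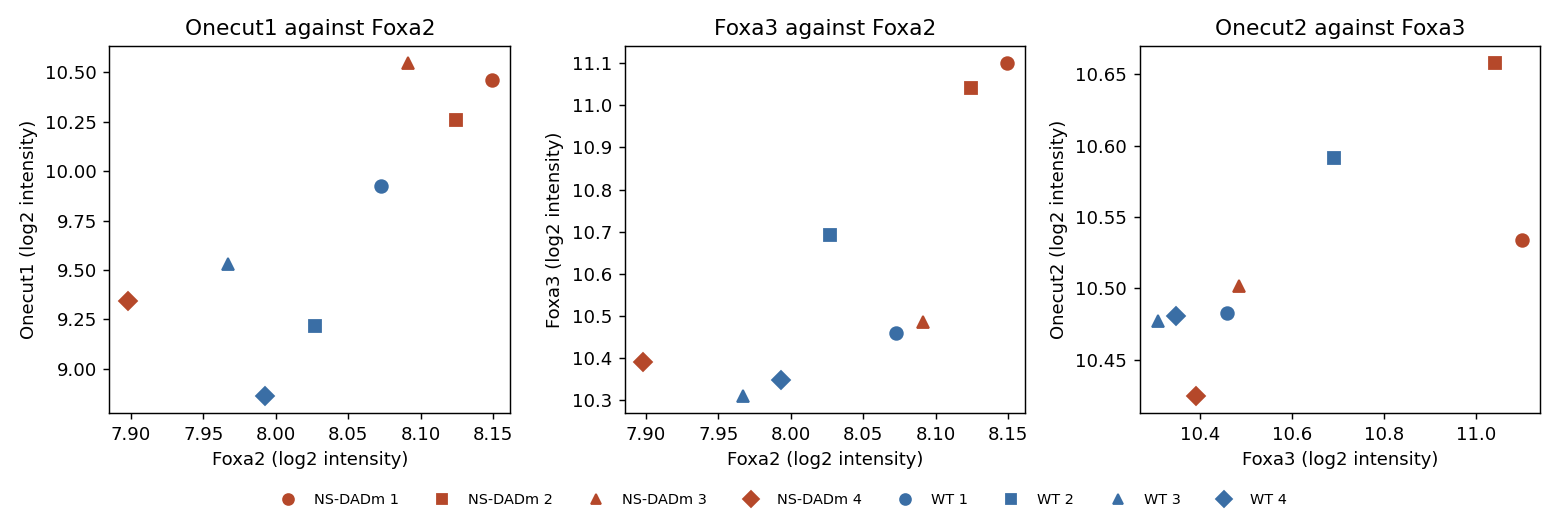
Log2 intensities of Onecut1 against Foxa2, Foxa3 against Foxa2 and Onecut2 against Foxa3, 1 point per array, with NS-DADm in red and WT in blue. In the left panel NS-DADm replicates 1, 2 and 3 lie at the upper right, and NS-DADm replicate 4 lies at the far left with the lowest Foxa2 value, 7.90.

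By Pearson's r over the 8 arrays, out of 9547 genes at or above the median level, the genes most like Onecut1 were Ccdc12 (r = 0.97) and Aldh1a1 (r = 0.94), a retinaldehyde dehydrogenase gene. Those most like Foxa3 were Scfd2 (0.98) and Urb1 (0.98), and those most like Foxa2 were Slc22a7 (0.95), an organic anion transporter gene, and Dmgdh (0.95), a mitochondrial enzyme gene of choline breakdown. Hnf4a was most like Ergic1 (0.95) and Arfip2 (0.94), Foxa1 most like Ap3m1 (0.96) and Abcd3 (0.95), Onecut2 most like Atp2a2 (0.97) and Bet1l (0.97), Cebpa most like Irf2bpl (0.95) and Cisd1 (0.92), and Prox1 most like Ube2s (0.97) and Armc5 (0.96). These are descriptions over 8 arrays that share 1 normalization, picked as the highest of many, and none of the 16 genes passed the test between genotypes (limma adjusted p = 0.621 for Ccdc12, the lowest).

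Of 8 close relatives, Hnf4g, Cebpb, Cebpd, Cebpe, Cebpg, Ddit3, Onecut3 and Prox2, none passed limma's test and none reached an unadjusted p under 0.05. Their log2 fold changes ran from -0.13 (Cebpe) to 0.04 (Cebpg), and Cebpb, the acute phase C/EBP, was at -0.07. Among 23 other measured hepatocyte transcription factors none passed limma's test, and the median log2 fold change was -0.03. At an unadjusted p under 0.05 limma called 5 of the 23, against 9.33% of all genes. The groups did not overlap in 2 of the 23, against 5.63% of all genes. Bcl6, a repressor with male-biased expression in mouse liver, had the largest difference. It was at 7.83, 8.46, 8.39 and 8.71 in NS-DADm livers, against 9.18, 9.13, 9.67 and 8.96 in WT livers, and the groups did not overlap. Its log2 fold change was -0.89 (SE 0.19, 95% confidence interval -1.30 to -0.47, limma adjusted p = 0.110). It passed the test without NS-DADm replicate 4 (-1.01, limma adjusted p = 0.0460) and with array weights (-0.99, limma adjusted p = 0.0448).

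Nr0b2, the small heterodimer partner that represses HNF4A and bile acid synthesis, varied widely. It was at 8.12, 8.90, 9.62 and 9.84 in NS-DADm livers, against 8.98, 10.36, 10.18 and 10.10 in WT livers, a log2 fold change of -0.79 (95% confidence interval -1.62 to 0.05, limma adjusted p = 0.571). That of Nr0b2 was -0.45 without NS-DADm replicate 1 and -1.09 without WT replicate 1. Nr2f2, a COUP-TF gene, was at -0.26 (limma adjusted p = 0.439), and its groups did not overlap. Without NS-DADm replicate 1 Nr2f2 was at -0.15. Nr1i3, the xenobiotic sensor CAR, was at -0.21 (limma adjusted p = 0.365). Klf6 (0.26) and Xbp1 (0.24), a factor of secretory capacity, were the highest and did not pass. Without NS-DADm replicate 1 Klf6 was at 0.16 and Xbp1 at 0.12.

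**Figure D4:**
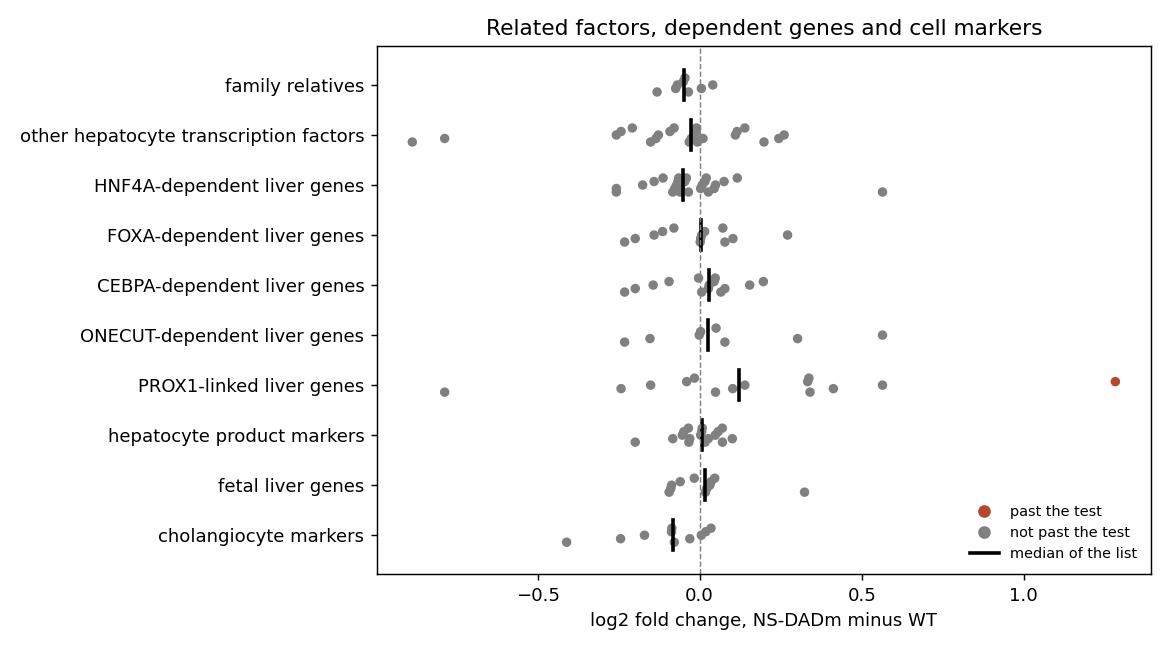
Log2 fold change of NS-DADm over WT for the measured genes of each list, 1 point per gene, with the median of the list as a black bar. Cd36 (1.28, red) is the only gene of these 10 lists past the test, and all 10 medians lie between -0.08 and 0.12.

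Genes known to depend on the factors were described by lists, of which some share genes. Over all genes 9.33% reached an unadjusted p under 0.05 by limma, and 5.63% did not overlap between groups. Of 26 measured genes that depend on HNF4A, none passed limma's test and 3 reached an unadjusted p under 0.05, with a median log2 fold change of -0.05. The groups did not overlap in 3 of the 26. The largest differences below 0 were in Abcg5 and Abcg8, whose products form the sterol efflux pump of the bile canaliculus. Abcg5 was at 11.72 ± 0.08 in NS-DADm livers and 11.97 ± 0.08 in WT livers (SD, n = 4 each), and the 4 arrays per group did not overlap in either gene. Both log2 fold changes were -0.26, with limma adjusted p of 0.173 and 0.205. Cyp7a1, the rate-limiting enzyme of bile acid synthesis, was highest at 0.56, with 0.35 without WT replicate 4. It was at 12.28, 12.61, 12.61 and 11.82 in NS-DADm livers, against 12.57, 11.85, 11.52 and 11.13 in WT livers, and did not pass (95% confidence interval -0.04 to 1.17, limma adjusted p = 0.573). As in Onecut1, the lowest value of either genotype was in replicate 4. Baat, which conjugates bile acids, was at 0.12.

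Of 13 measured genes that depend on FOXA factors none passed limma's test, and the median was 0.00. At an unadjusted p under 0.05 limma called 4, against 9.33% of all genes. Pck1, a gluconeogenic enzyme gene, was at 13.18 ± 0.13 in NS-DADm livers and 13.41 ± 0.05 in WT livers (SD, n = 4 each), which differ by -0.23 (limma adjusted p = 0.278). Tat, tyrosine aminotransferase, was at -0.20 (limma adjusted p = 0.427), and at -0.12 without NS-DADm replicate 1. Neither overlapped between groups, as was so for 5 of the 13 genes, against 5.63% of all genes. Igfbp1 (0.27) and Abcb11 (0.10), the bile salt export pump gene, were the highest and did not pass. Igfbp1 was at 0.04 without NS-DADm replicate 1, and Abcb11 was at 0.04 without WT replicate 2 and 0.05 without NS-DADm replicate 3. Of 14 measured genes that depend on C/EBP alpha none passed, 4 reached an unadjusted p under 0.05 by limma, and the median was 0.03. The groups did not overlap in 4 of the 14. The lowest were again Pck1 (-0.23) and Tat (-0.20), and both were among those under 0.05. The highest were Hp (0.20), which encodes haptoglobin, and Agxt (0.15), and Agxt was at 0.03 without NS-DADm replicate 4. Of 8 measured genes that depend on ONECUT factors, a list that holds Hnf4a, Foxa2, Foxa3 and Prox1 themselves, none passed. By limma 1 of the 8, Pck1, reached an unadjusted p under 0.05, and the median was 0.03.

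Of 14 genes linked to PROX1, 1 rose past limma's test, against 0.271% of all genes past it in either direction. It was Cd36, which encodes a fatty acid translocase. Its log2 intensities were 10.40, 10.09, 10.27 and 10.10 in NS-DADm livers, against 8.39, 9.14, 8.87 and 9.33 in WT livers. The log2 fold change was 1.28 (SE 0.17, limma adjusted p = 0.0130). Its limma adjusted p was 0.0539 without WT replicate 2 and 0.0534 without WT replicate 3. Without shared variances the adjusted p of the unmoderated test was 0.268, and no gene of the table passed there. The other 13 did not pass, and the median of the list was 0.12. By limma 4 of the 14, Cd36 among them, reached an unadjusted p under 0.05, against 9.33% of all genes. The groups did not overlap in 2 of the 14, Cd36 among them, against 5.63% of all genes. Ppargc1a, a coactivator gene of fasting metabolism, was at -0.24 (limma adjusted p = 0.922) and at 0.04 without NS-DADm replicate 1.

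The mean level of 17 measured hepatocyte product genes was 13.50 to 13.57 in NS-DADm livers and 13.53 to 13.54 in WT livers. These levels lie near the highest value of the table, 14.37, and whether differences are compressed there was not tested. None of the 17 passed limma's test, 1 (Tat) reached an unadjusted p under 0.05, and the median log2 fold change was 0.01. The groups did not overlap in 4 of the 17, against 5.63% of all genes. Alb was at 13.97 ± 0.01 in NS-DADm livers and 13.96 ± 0.03 in WT livers (SD, n = 4 each). The highest of the list was Hpx (0.10), which encodes hemopexin, followed by the fibrinogen gene Fgg (0.07), and Tdo2 was at -0.08 (-0.04 without NS-DADm replicate 2). Of 10 measured cholangiocyte markers none passed, with a median of -0.08. The lowest were Aqp1 (-0.41, limma adjusted p = 0.129), a water channel gene that endothelium also expresses, and Cdh1 (-0.24, or -0.11 without WT replicate 4). All 14 sinusoidal endothelial markers were below 0, with a median of -0.29. Of these 1 passed, Dnase1l3 (-0.59, limma adjusted p = 0.0233), against 0.271% of all genes. For Dnase1l3 the limma adjusted p was 0.0546 to 0.127 without NS-DADm replicate 2 or any 1 WT array. After subtraction of array medians it was 0.0525. Without shared variances the adjusted p of the unmoderated test was 0.273, and no gene of the table passed there. At an unadjusted p under 0.05 limma called 9 of the 14, against 9.33% of all genes. Gpr182 was at -0.47 (limma adjusted p = 0.381, or 0.0374 without NS-DADm replicate 4). With that array left out the count of sinusoidal endothelial markers past the test was 4. The count over all 19934 genes was then 126, against 54 on all 8 arrays. Array medians ran from 7.39 to 7.50, and arrays correlated at r of 0.993 to 0.998 over probe sets.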

How the data were processed

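The authors deposited 1 table of 28270 probe sets on 8 arrays, which they made with the tools RMA and Partek, per the submitters' processing notes. How these were set is not given in the sources used here. Its deposited numbers were read as log2 intensities from their range, 3.43 to 14.37, so folds hold only if that reading is right. RMA compresses small differences at low intensity, and no detection calls were used here. Probe sets were named from the platform annotation, updated by Entrez Gene identifier through RefSeq GRCm38.p6. Of them 21780 named 1 gene, and each gene was represented by its probe set with the highest mean. The transcripts of the corepressor genes were not analysed here.

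Groups and replicate numbers came from sample titles. limma 3.58.1 in R 4.3.3 was fitted over all 19934 genes (lmFit, eBayes, two-sided, Benjamini-Hochberg, threshold 0.05). No filter or pseudocount was used. The steps were tested on simulated data. Alternatives were other probe set rules, a filter on low values, other normalizations and variance models, weights per array, replicate number as block, and leaving each array out. The members and lists were chosen with earlier results of these data known. Named genes were the members, related factors and the genes most like each member. From other lists they were the genes past the threshold or among the 2 largest in a direction. Alb, Afp and Lyve1 were named outside this rule. Tables and figures used Python 3.11.15, pandas 2.3.3, scipy 1.17.1 and matplotlib 3.10.9. The number of arrays limits the precision.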

Additional observations from a re-analysis of the deposited data

Results flagged for a closer look

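Among the 8 factor genes, 2 of 16 groups of 4 arrays held an array far from the other 3 by Dixon's 95% criterion, which chance gives in about 5% of groups. Cebpa in WT replicate 1 was 11.15, against 10.85 in the nearest WT array. Onecut2 in WT replicate 2 was 10.59, against 10.48 in the nearest. Over these and the other named genes 8 of 84 groups held such an array. In NS-DADm replicate 1 these were Abcg5 (11.60, nearest 11.75), Fgg (13.67, nearest 13.62) and Aqp1 (9.22, nearest 9.44). In NS-DADm replicate 4 these were Hpx (13.86, nearest 13.76), the proliferation gene Mki67 (7.72, nearest 6.91) and Flt4 (8.54, nearest 8.13), an endothelial receptor gene.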

How the results depend on the processing

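Over 17 alternatives each, Foxa1, Foxa2, Foxa3, Cebpa and Prox1 kept their direction and stayed short of the threshold. The probe set rules, the filter, the variance models and the block could not change the fold change of a gene with 1 probe set. For the direction, only the other normalizations, the array weights and the fits with 1 array left out are informative. The log2 fold change of Hnf4a was above 0 after subtraction of array medians (0.00417) and with array weights (0.00204), and ran from -0.0250 to 0.0281 with 1 array left out. That of Onecut2 ran from -0.0213 to 0.0567 with 1 array left out. Onecut1 kept its direction, from 0.60 to 1.04 with 1 array left out. With the replicate number as a block its value was 0.77 with a limma adjusted p of 0.0260, so that 1 of the 8 genes passed there and none under the other alternatives. No pairing by number is stated for these samples. The deviations of same-numbered arrays from their group means correlated at 0.15, 0.05, -0.10 and 0.25 over genes for replicates 1 to 4. NS-DADm replicates 1 and 4 correlated best with the WT array of their own number, and NS-DADm replicates 2 and 3 did not. Whether the numbers pair the samples cannot be told from these values. The count of changed genes, 54, was 105 with the block, 109 with array weights and 0 without shared variances, and ran from 13 without WT replicate 2 to 126 without NS-DADm replicate 4. Cebpb ran from -0.15 to 0.0202 (without WT replicate 1) and Ppargc1a from -0.53 to 0.0364 (without NS-DADm replicate 1). The cause of these shifts was not tested.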

Other observations

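Genes listed here as fetal liver genes did not differ beyond the test. Their mean level was 6.88 to 6.95 in NS-DADm livers and 6.83 to 6.96 in WT livers. That is below the lowest array median, 7.39, and no detection calls were used. Whether such low signals could show a difference was not tested. Of 11 measured, none passed limma's test and none reached an unadjusted p under 0.05, and the median log2 fold change was 0.02. Afp, which encodes alpha-fetoprotein, was at 6.85 ± 0.15 in NS-DADm livers and 6.82 ± 0.03 in WT livers (SD, n = 4 each). Mki67 was highest at 0.32 (0.11 without NS-DADm replicate 4) and Hmga2 lowest at -0.09. Pancreatic genes, which would mark tissue that shares Foxa2, Onecut1 and Prox1 with liver, had a mean level of 6.89 to 7.01 in NS-DADm livers and 6.81 to 7.10 in WT livers, and none of 9 passed limma's test or reached an unadjusted p under 0.05.

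Of the other cell types, 12 Kupffer cell markers had a median of 0.10, with Marco highest at 0.28 (0.14 without NS-DADm replicate 4), and 12 stellate cell markers a median of -0.05, with Reln lowest at -0.35. Without NS-DADm replicate 4 the stellate median was -0.16, and without NS-DADm replicate 1 Reln was at -0.23. Of 9 measured blood cell markers 7 were above 0 and 2 below 0, with a median of 0.18 and the highest at 0.32. The lowest was the erythroid gene Alas2, at -0.51 (limma adjusted p = 0.0707). Alas2 passed without NS-DADm replicate 4 (limma adjusted p = 0.0153), with array weights (0.0407), with trended and robust variances (0.0470) and with the replicate number as a block (0.0372). Among genes at or above the median level, which left 2 blood cell markers, the median was -0.10. On all 8 arrays and without these alternatives, none of these 3 lists held a gene past the test. At an unadjusted p under 0.05 limma called 0, 1 and 3 members, against 9.33% of all genes. Of the 3 blood cell markers so called, Alas2 was the only one below 0. The groups did not overlap in 0, 0 and 2 members, against 5.63% of all genes.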
